A study of Mus musculus with 9 samples.

Results

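The BCL2 family genes that set survival and death of T cells were followed in CD4+ T cells from mice with experimental autoimmune encephalomyelitis (EAE), in which the immune system is primed against myelin as a model of multiple sclerosis. There were 9 of them among the 39253 genes of the count table, chosen by symbol: the prosurvival genes Bcl2, Bcl2l1, Mcl1 and Bcl2a1b, the pore-forming genes Bax and Bak1, and the BH3-only genes Bcl2l11, Bbc3 and Pmaip1. Estrogen receptor alpha (ERα) KO samples were compared with wildtype samples, all collected at day 9 of EAE. Batch 1 held 3 ERα KO and 2 wildtype libraries, and batch 2 held 2 ERα KO and 2 wildtype libraries. The title of the series names dendritic cells as the place of ERα signalling, while the RNA was that of CD4+ T cells. The labels leave out the cells in which the knockout acts, the organ the T cells came from, and the age and sex of the mice. Nothing in the labels ties a library to a separate animal, so p-values measure only the spread between these samples, which may be technical.

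BCL2 family proteins decide whether the outer membrane of the mitochondria is opened, the step that commits a cell to apoptosis. BAX and BAK form the pores, prosurvival proteins hold them in check, and BH3-only proteins are produced or released under stress and bind the prosurvival proteins or the pore formers. In T cells, BCL2 is kept up by interleukin-7 signals, MCL1 is needed at every stage, BCL-XL and A1 are induced by activation, and BIM removes self-reactive and spent cells.

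The BH3 core is the short stretch through which these proteins bind one another, and it is shown because it is what the genes share as a family. It was searched as 6 codons that read leucine, any 3 residues, glycine and aspartate, with alanine also allowed in place of glycine. The bases are those of build GRCm38 in the GENCODE transcripts, read 5′ to 3′ on the coding strand, with the 6 core codons in capitals and 12 bases on each side. Of the 8 genes searched, 7 held 1 match each, and Bcl2a1b held none, which says only that these residues are not in its reading frame in this order.
Bcl2: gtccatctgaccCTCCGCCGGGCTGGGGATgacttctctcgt
Bcl2l1: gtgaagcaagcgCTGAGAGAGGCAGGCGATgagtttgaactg
Mcl1: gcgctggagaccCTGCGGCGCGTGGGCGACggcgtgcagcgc
Bax: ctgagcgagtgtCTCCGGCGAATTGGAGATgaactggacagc
Bak1: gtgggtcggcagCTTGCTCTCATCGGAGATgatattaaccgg
Bcl2l11: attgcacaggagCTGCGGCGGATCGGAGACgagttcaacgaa
Bbc3: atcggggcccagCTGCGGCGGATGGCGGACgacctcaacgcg
The stretches lie at chr1:106712572-106712613 on the minus strand for Bcl2, chr2:152829694-152829735 minus for Bcl2l1, chr3:95659424-95659465 plus for Mcl1, chr7:45465994-45466035 minus for Bax and chr17:27022528-27022569 minus for Bak1. Those of the BH3-only genes lie at chr2:128147138-128147179 plus for Bcl2l11 and chr7:16313761-16313802 plus for Bbc3. Glycine stood at the fifth codon of the core in 6 of the 7 genes, and the alanine form occurred in Bbc3. All 7 stretches are exonic and in the coding sequence. No stretch is shown for Pmaip1.

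Bcl2a1b belongs to a cluster of near-identical copies on chromosome 9, so its count is uncertain. Its coding sequence of 516 bases differed from Bcl2a1d at 6 bases (98.8% identity) and from Bcl2a1a at 11 bases (97.9% identity). With reads of 100 bases, 223 of the 718 windows of the Bcl2a1b transcript (31.1%) occur unchanged in Bcl2a1d. The start of the reading frame shows how alike the copies are, with the differing bases in capitals.
Bcl2a1b: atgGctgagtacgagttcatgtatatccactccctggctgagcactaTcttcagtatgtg
Bcl2a1d: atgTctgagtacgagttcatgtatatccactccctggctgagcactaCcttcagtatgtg
These are the first 60 coding bases in GRCm38, at chr9:89199360-89199419 on the plus strand for Bcl2a1b and chr9:88731660-88731719 on the minus strand for Bcl2a1d. They differ at 2 positions.

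The libraries of batch 1 held 4926347 to 11296593 counts and the deeper ones of batch 2 held 45013017 to 69844721. All 9 CD4 T cell markers in the table had counts in every library, with sums in CPM (the count scaled to a library total of 1e6) that separated the genotypes in opposite directions in the batches. The sums were 3894, 4029 and 3840 CPM in ERα KO against 4472 and 4250 CPM in wildtype libraries of batch 1, and 5492 and 5557 CPM against 4740 and 5307 CPM in batch 2. Esr1, the targeted gene, stood at 0.14 and 0.26 CPM in the ERα KO libraries of batch 2, against 1.45 and 1.69 CPM in wildtype. In batch 1 it overlapped, at 9.58, 6.31 and 13.0 CPM in ERα KO and 4.87 and 16.2 CPM in wildtype libraries, so there it does not check the labels. Within batch 2 its log2 fold change was -2.96 ± 0.70 (SE; edgeR adjusted p = 0.618). A pair of libraries stood apart from the rest of their batch. ERα KO replicate 3 had Xist at 30.4 CPM and the Y-linked gene Ddx3y at 55.4 CPM. The other batch 1 libraries had Xist at 1745 to 2680 CPM and Ddx3y at 0. Every library of batch 2 had Ddx3y, at 93.6 to 107 CPM, with Xist at 0 to 0.29 CPM. Except in ERα KO replicate 3, batch and the level of these sex-linked genes cannot be told apart. Wildtype replicate 3 held erythroid markers at a summed 4977 CPM, while the other 3 libraries of batch 2 held 264 and 247 CPM (ERα KO) and 180 CPM (wildtype). Values of the 9 genes that these libraries move most are given with and without them.

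None of the 9 genes differed between ERα KO and wildtype beyond the threshold (adjusted p of 0.05 over all genes tested) in any of the edgeR comparisons. Within batch 1, 0 of 9 were called, against 0.126% of the 24600 genes tested (0.0732% higher and 0.0528% lower in ERα KO), and none had an unadjusted p under 0.05, against 1.97% of all genes. Within batch 2, 0 of 9 were called, against 0% of 15910 genes, and Bcl2 (higher) and Pmaip1 (lower) had an unadjusted p under 0.05, against 7.77% of all genes. With both batches in a model with a batch term, 0 of 9 were called, against 0.00451% of 22197 genes, and 0 had an unadjusted p under 0.05, against 2.36% of all genes. Of genes given an adjusted p by DESeq2, it called 0 of the 9 within batch 1, against 0.13% of 24599, and 0 of the 9 over both batches, against 0.118% of 13580. Within batch 2 it called 1 of the 9, Pmaip1, against 2.11% of 15601. All 9 genes passed the low-count filter in every comparison. Counts of single genes ran from 21, for Bcl2a1b in wildtype replicate 2, to 42365. That lowest count corresponds to 4.26 CPM, with an exact 95% interval of 2.64 to 6.52 CPM for counting error. CPM is not divided by gene length, so levels are compared between samples and not between genes. A scaling by transcript length before deposit is neither stated nor denied in the labels, so counting intervals rest on reading the values as numbers of reads.

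**Figure D1:**
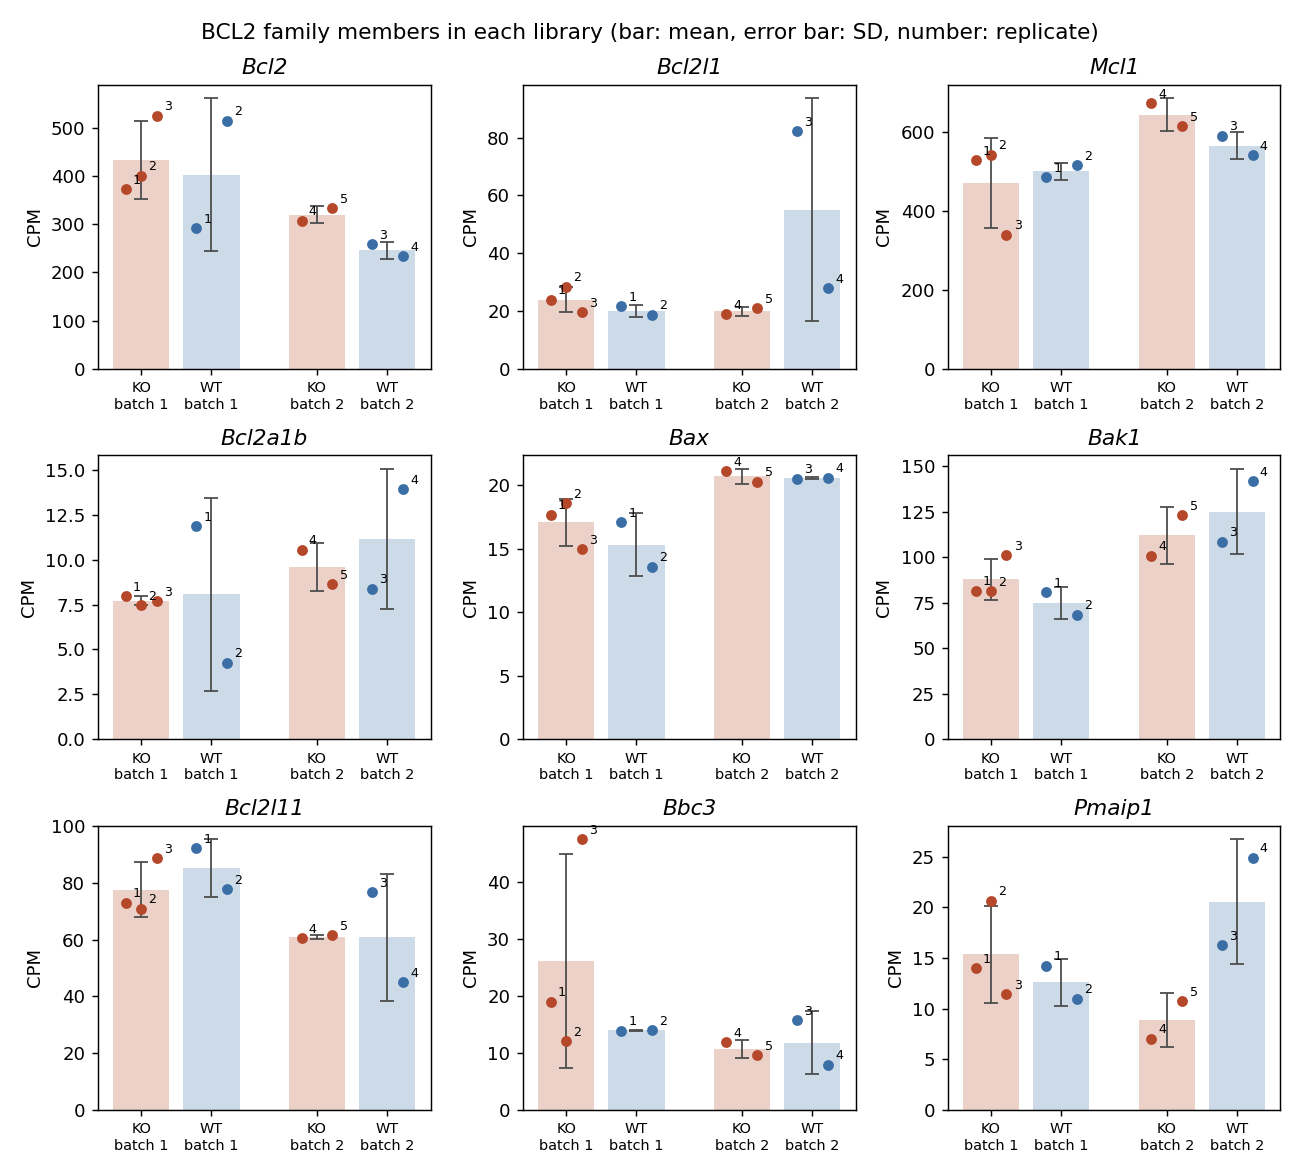
Level in CPM of each of the 9 BCL2 family genes in every library, with ERα KO left of wildtype within each batch; points carry the replicate number, bars are group means and error bars are SD. The points of the groups do not overlap for Bak1 in batch 1 and for Bcl2, Mcl1, Bcl2l1 and Pmaip1 in batch 2, and wildtype replicate 3 lies far above the other libraries for Bcl2l1.

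Bcl2, the prosurvival gene that naive and memory T cells depend on, stood at 307 and 333 CPM in the ERα KO libraries of batch 2, against 259 and 234 CPM in the wildtype libraries. Both ERα KO libraries lay above both wildtype libraries. The log2 fold change was 0.38 ± 0.12 (95% interval 0.08 to 0.68; edgeR unadjusted p = 0.021, adjusted p = 0.625). In batch 1 the same gene stood at 373, 401 and 526 CPM in ERα KO and 291 and 515 CPM in wildtype libraries. There the groups overlapped, and the wildtype libraries were farther apart than the group means, at 433 ± 81.1 CPM in ERα KO (SD, n = 3) and 403 ± 158 CPM in wildtype (SD, n = 2). The batch 1 log2 fold change was -0.02 ± 0.36 (edgeR adjusted p = 1.00). Without wildtype replicate 3 the batch 2 value of Bcl2 was 0.49 (edgeR adjusted p = 0.049), and without wildtype replicate 4 it was 0.26 (adjusted p = 0.207). Each of those fits leaves 1 wildtype library, which is assumed to vary like the ERα KO libraries, and the adjusted p over all alternatives ran from 0.049 to 1.00.

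Mcl1 encodes a short-lived prosurvival protein whose loss kills most lymphocytes. In batch 2 it stood at 674 and 616 CPM in ERα KO libraries, against 591 and 541 CPM in wildtype. The 4 libraries of batch 2 did not overlap between genotypes, and the log2 fold change was 0.19 ± 0.11 (edgeR adjusted p = 0.732), and 0.29 without wildtype replicate 3 (adjusted p = 0.206). Batch 1 gave 529, 543 and 340 CPM in ERα KO and 486 and 516 CPM in wildtype libraries. Of these, ERα KO replicate 3 was the lowest and the other ERα KO libraries were the highest, and the log2 fold change was -0.19 ± 0.37 (edgeR adjusted p = 1.00). Without that library the value was 0.063 (adjusted p = 1.00), so its direction in batch 1 rested on ERα KO replicate 3.

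Bcl2l1 encodes BCL-XL, which is induced in activated T cells and is also abundant in maturing red blood cells. Within batch 2 it stood at 18.9 and 20.9 CPM in ERα KO libraries against 82.3 and 27.8 CPM in wildtype libraries. Wildtype replicate 3 was far above all 8 other libraries, which lay between 18.7 and 28.3 CPM. The log2 fold change within batch 2 was -1.49 ± 0.61 (95% interval -3.24 to 0.26; edgeR adjusted p = 0.678). In batch 1 the groups overlapped, at 23.9, 28.3 and 19.5 CPM in ERα KO and 21.6 and 18.7 CPM in wildtype libraries, and the log2 fold change was 0.12 ± 0.37 (edgeR adjusted p = 1.00).

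The batch 2 value of Bcl2l1 depended on which wildtype library was kept. Without wildtype replicate 3 it was -0.45 (edgeR adjusted p = 0.288), and without wildtype replicate 4 it was -2.09 (edgeR adjusted p = 3.8e-05). Over all alternatives the adjusted p ran from 3.8e-05 to 1.00. The same wildtype replicate 3 carried the high sum of erythroid transcripts. All 15 erythroid markers had counts in each library of batch 2, and in wildtype replicate 3 Slc4a1, the band 3 anion exchanger of red blood cells, reached 2023 CPM, against 72.8 and 71.0 CPM in ERα KO libraries and 52.3 CPM in wildtype replicate 4. The 15 markers were chosen after the values of Bcl2l1 were seen. Bcl2l2, the prosurvival relative BCL-W, was also high in that library, at 47.1 CPM, against 3.26 and 3.75 CPM in ERα KO libraries and 5.58 CPM in wildtype replicate 4. The part of erythroid RNA in these values was not tested, and in bulk RNA fewer cells of a type and less RNA per cell cannot be told apart.

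**Figure D2:**
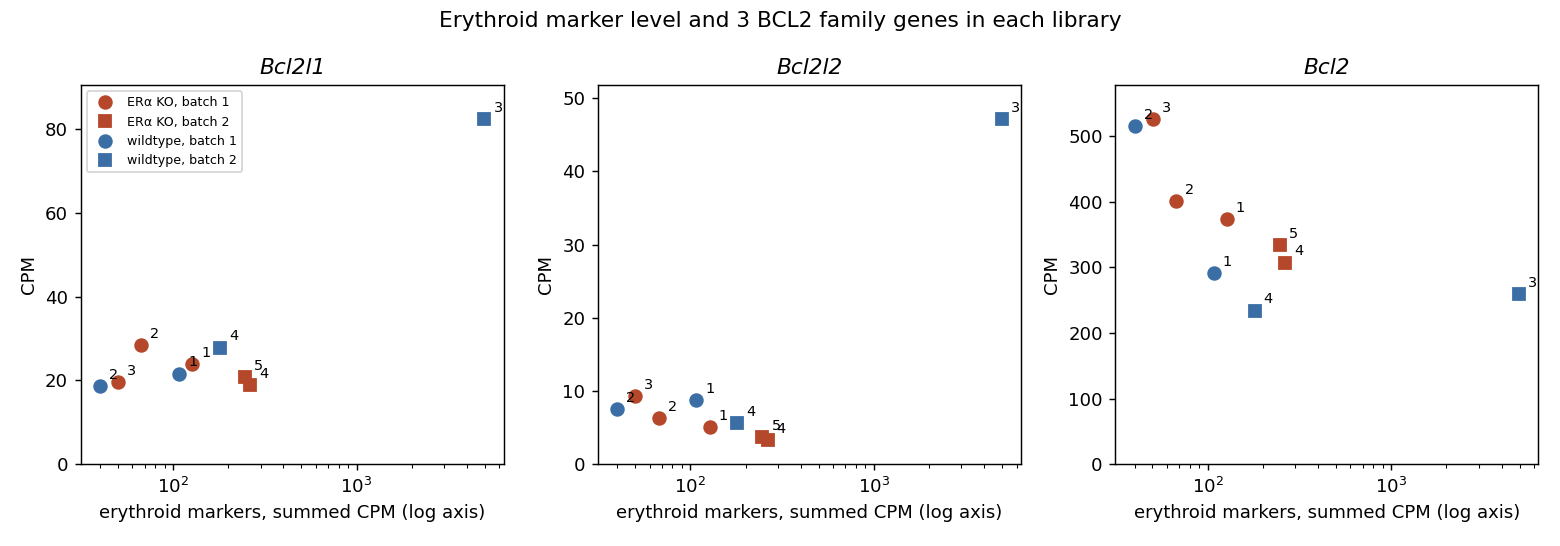
Bcl2l1, Bcl2l2 and Bcl2 in CPM (vertical axes) against the summed CPM of 15 erythroid markers (horizontal axes, logarithmic) in each of the 9 libraries; circles are batch 1, squares batch 2, and numbers are replicates. Wildtype replicate 3, at 4977 CPM of erythroid markers, has the highest Bcl2l1 (82.3 CPM) and Bcl2l2 (47.1 CPM), while its Bcl2 (259 CPM) lies within the range of the other libraries.

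Bcl2a1b, a copy of the activation-induced gene A1, stood at 10.5 and 8.64 CPM in ERα KO and 8.39 and 13.9 CPM in wildtype libraries of batch 2. It stood at 7.98, 7.46 and 7.69 CPM in ERα KO and 11.9 and 4.26 CPM in wildtype libraries of batch 1. The wildtype libraries enclosed the ERα KO libraries in both batches. The log2 fold changes were -0.20 ± 0.29 in batch 2 (edgeR adjusted p = 0.902) and -0.30 ± 0.49 in batch 1 (edgeR adjusted p = 1.00). Since reads are shared between copies, the summed level of Bcl2a1a, Bcl2a1b and Bcl2a1d was also taken. It was 14.0 and 13.2 CPM in ERα KO against 13.9 and 23.7 CPM in wildtype libraries of batch 2, and 11.8, 11.7 and 10.8 CPM against 15.2 and 6.29 CPM in batch 1. The sums overlapped between genotypes in both batches.

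Of the pore-forming pair, Bax varied little among the libraries of batch 2. It stood at 21.1 and 20.3 CPM in ERα KO and 20.5 and 20.6 CPM in wildtype libraries, with a log2 fold change of 0.01 ± 0.15 (95% interval -0.36 to 0.39; edgeR adjusted p = 0.991). In batch 1 it stood at 17.7, 18.6 and 14.99 CPM in ERα KO and 17.1 and 13.6 CPM in wildtype libraries, and the log2 fold change was 0.00 ± 0.38 (95% interval -0.76 to 0.77; edgeR adjusted p = 1.00). The groups overlapped in both batches.

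Bak1, the other pore former, was at 81.7, 81.4 and 101 CPM in ERα KO libraries of batch 1, against 80.9 and 68.4 CPM in wildtype libraries. It was the 1 member of the 9 whose CPM values did not overlap between genotypes in batch 1, where 16% of all genes tested did not overlap, 10.9% with higher and 5.19% with lower values in ERα KO. The nearest values, 81.4 CPM in ERα KO and 80.9 CPM in wildtype, were almost level. After scaling, its log2 fold change there was 0.06 ± 0.37 (edgeR adjusted p = 1.00). In batch 2 the groups overlapped, at 101 and 123 CPM in ERα KO and 109 and 142 CPM in wildtype libraries (log2 fold change -0.15 ± 0.16, edgeR adjusted p = 0.850).

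Among the BH3-only genes, Pmaip1, which encodes NOXA, a partner of MCL1, differed most in batch 2. It stood at 7.02 and 10.7 CPM in ERα KO libraries, against 16.3 and 24.9 CPM in wildtype libraries. Both ERα KO libraries lay below both wildtype libraries, and the means were 8.88 ± 2.64 CPM in ERα KO and 20.6 ± 6.13 CPM in wildtype (SD, n = 2 each). The log2 fold change was -1.20 ± 0.30 (95% interval -1.96 to -0.44; edgeR unadjusted p = 0.009, adjusted p = 0.618), and in DESeq2 it was -1.20 with an adjusted p of 0.0314. Without wildtype replicate 3 the edgeR value was -1.45 (adjusted p = 0.0466) and without wildtype replicate 4 it was -0.91 (adjusted p = 0.160), again with 1 wildtype library left. Over all alternatives the adjusted p of Pmaip1 in batch 2 ran from 0.0314 to 1.00. In batch 1 the groups overlapped, at 14.0, 20.7 and 11.4 CPM in ERα KO and 14.3 and 10.96 CPM in wildtype libraries (log2 fold change 0.15 ± 0.41, edgeR adjusted p = 1.00).

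In batch 2, the 2 higher genes (Bcl2 and Mcl1) and the 2 lower genes (Bcl2l1 and Pmaip1) made 4 of 9 whose CPM values did not overlap, against 40% of all genes tested there, so the share was near that of genes in general. By direction, 19.6% of all genes did not overlap with higher values in ERα KO and 20.5% with lower values. Several other sums separated the genotypes in the same libraries. Proliferation genes summed to 963 and 1338 CPM in ERα KO and 3289 and 1891 CPM in wildtype libraries of batch 2, all 16 of them having a negative log2 fold change. Genes of tissue dissociation and early stress summed to 7412 and 6346 CPM in ERα KO and 13874 and 9393 CPM in wildtype libraries. Neutrophil markers summed to 7.41 and 11.5 CPM in ERα KO libraries, with 2 and 1 of 12 at 0, and to 244 and 27.8 CPM in wildtype libraries, with 0 and 1 at 0. Monocyte and macrophage markers summed to 172 and 212 CPM in ERα KO and 227 and 428 CPM in wildtype libraries. All 4 of these sums lay lower in both ERα KO libraries of batch 2. The CD4 T cell markers, as given above, and the summed dendritic cell markers lay higher. The dendritic sums were 342 and 301 CPM in ERα KO libraries, with 4 and 3 of 10 at 0. They were 240 and 183 CPM in wildtype libraries, with 1 and 3 at 0. Most of each dendritic sum was Ccr7, at 335 and 291 CPM in ERα KO and 230 and 169 CPM in wildtype libraries. Of the other dendritic cell markers, Itgax, Xcr1 and Batf3 lay lower in both ERα KO libraries and the rest overlapped. The higher dendritic sum was thus that of Ccr7 and not of the markers as a set. The part of all 6 sums in the values of Bcl2, Mcl1, Bcl2l1 and Pmaip1 was not tested. In batch 1, proliferation genes overlapped, at 747, 1139 and 739 CPM in ERα KO and 1087 and 584 CPM in wildtype libraries. The early stress, monocyte and neutrophil sums overlapped there too, with neutrophil markers at 1345, 834 and 1156 CPM against 1044 and 351 CPM. Sums higher in ERα KO in batch 1 were those of B cell markers, at 117, 147 and 107 CPM against 93.3 and 94.0 CPM, and of dendritic cell markers. The latter stood at 287, 294 and 297 CPM against 257 and 252 CPM. Ccr7 made up most of each of these sums too. By itself, however, Ccr7 overlapped in batch 1, at 247, 229 and 246 CPM in ERα KO and 230 and 215 CPM in wildtype libraries. The separation of the batch 1 dendritic sums was thus not that of Ccr7 alone.

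Bcl2l11 encodes BIM, the BH3-only protein that ends T cell responses. It stood at 73.2, 70.9 and 88.8 CPM in ERα KO and 92.4 and 77.9 CPM in wildtype libraries of batch 1, and the groups overlapped, and the log2 fold change was -0.31 ± 0.36 (edgeR adjusted p = 1.00). In batch 2 it stood at 60.5 and 61.5 CPM in ERα KO libraries, between the wildtype values of 76.8 and 45.1 CPM. The log2 fold change there was -0.01 ± 0.29 (edgeR adjusted p = 0.998). Without wildtype replicate 3 it was 0.48 (adjusted p = 0.110), and without wildtype replicate 4 it was -0.37, so its direction in batch 2 was set by which wildtype library was kept.

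Bbc3 encodes PUMA, a target of p53. In batch 1 it stood at 19.0, 12.1 and 47.5 CPM in ERα KO libraries, against 13.9 and 14.0 CPM in wildtype libraries. ERα KO replicate 3 was far above the rest, and the other ERα KO libraries lay on either side of the wildtype pair. The log2 fold change was 0.65 ± 0.40 (edgeR adjusted p = 1.00), and without ERα KO replicate 3 it was 0.11. Within batch 1, that library was the one with low Xist and with Ddx3y. It also held the highest share of counts in sensory receptor genes, at 0.255%, against 0.0574% to 0.153% in the other batch 1 libraries. The part of these features in the Bbc3 value was not tested. In batch 2 Bbc3 stood at 11.9 and 9.57 CPM in ERα KO and 15.7 and 7.95 CPM in wildtype libraries, and the log2 fold change was -0.15 ± 0.38 (edgeR adjusted p = 0.951), and the wildtype libraries enclosed those of the knockout.

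Over both batches together, the log2 fold changes of the prosurvival genes were 0.20 ± 0.17 for Bcl2, 0.02 ± 0.16 for Mcl1, -0.62 ± 0.43 for Bcl2l1 and -0.18 ± 0.29 for Bcl2a1b. The pore formers had 0.06 ± 0.14 for Bax and 0.02 ± 0.13 for Bak1. The BH3-only genes had -0.11 ± 0.16 for Bcl2l11, 0.36 ± 0.40 for Bbc3 and -0.46 ± 0.33 for Pmaip1. The value of Bcl2l1 was -0.13 without wildtype replicate 3, and without ERα KO replicate 3 that of Bbc3 was -0.034. All 9 had an edgeR adjusted p of 1.00. The narrowest 95% intervals were those of Bak1, from -0.27 to 0.31, and Bax, from -0.26 to 0.38. The median log2 fold change of the 9 genes was 0.02, with 5 positive and 4 negative, beside 0.01 over all genes tested. Within batch 2 the median of the 9 was -0.15, with 3 positive and 6 negative, beside -0.02 over all genes. Within batch 1 it was 0.00, with 5 positive and 4 negative, beside 0.04 over all genes, and the all-gene median was -0.08 under the size factors of DESeq2 and 0.11 under upper-quartile scaling.

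The difference between the batches was tested as an interaction, batch 2 minus batch 1. The batches also differed in Xist and Ddx3y, as given above, so batch and these sex-linked levels cannot be told apart in it. None of the 9 genes passed, against 0.00451% of 22197 genes called, while Bcl2l1 and Pmaip1 had an unadjusted p under 0.05, against 8.36% of all genes. DESeq2 also called 0 of 9, against 0.758% of 21762 genes. Bcl2l1 had an interaction of -1.71 ± 0.59 (edgeR unadjusted p = 0.017, adjusted p = 0.563). Without wildtype replicate 3 it was -0.60 (adjusted p = 1.00), and without wildtype replicate 4 it was -2.29 (adjusted p = 0.00627). The adjusted p of this value ran from 0.00627 to 1.00 over all alternatives. Pmaip1 had -1.46 ± 0.49 (edgeR unadjusted p = 0.013, adjusted p = 0.533) and Bbc3 had -0.99 ± 0.74 (adjusted p = 0.792), or -0.30 without ERα KO replicate 3 (adjusted p = 1.00). The median interaction was -0.11 over the 9 genes and -0.19 over all genes tested.

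**Figure D3:**
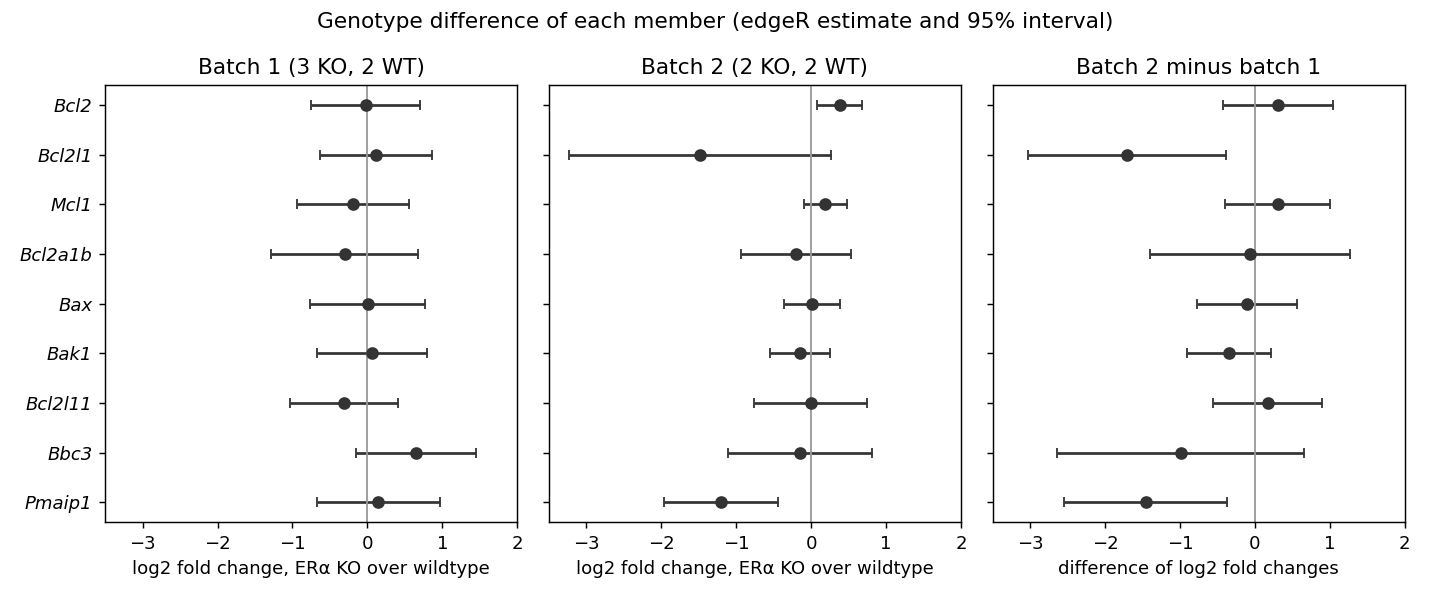
Log2 fold change, ERα KO over wildtype, of the 9 genes within batch 1 and within batch 2, and the difference of the 2 (batch 2 minus batch 1, from the interaction); points are edgeR estimates, horizontal bars their 95% intervals and the vertical line marks no difference. In batch 2 the intervals of Bcl2 (0.08 to 0.68) and Pmaip1 (-1.96 to -0.44) lie off the line before adjustment over all genes, and that of Bcl2l1 (-3.24 to 0.26) is the widest.

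Around these 9 genes, 76 other genes of the same pathway in 7 lists gave 0 edgeR calls in batch 1, batch 2, both batches or the interaction. The genes named here are among those with the smallest p of each list. Among the 15 other BCL2 family genes, Bmf, a BH3-only gene, stood at 15.6, 14.1 and 17.8 CPM in ERα KO and 5.13 and 8.93 CPM in wildtype libraries of batch 1, and at 6.49 and 3.79 CPM against 3.99 and 2.02 CPM in batch 2. The genotypes did not overlap in batch 1 and overlapped in batch 2. Its log2 fold change was 1.06 ± 0.43 in batch 1 (edgeR adjusted p = 1.00), 0.76 ± 0.50 in batch 2 (adjusted p = 0.747) and 0.96 ± 0.31 over both. Bid, which links caspase-8 to the mitochondria, stood at 19.3, 14.8 and 18.3 CPM against 12.3 and 11.4 CPM in batch 1. In batch 2 it stood at 14.4 and 12.8 CPM against 11.5 and 11.5 CPM, with ERα KO values above wildtype values in both batches. Of all genes tested, 10.9% in batch 1 and 19.6% in batch 2 lay higher without overlap. The share that did so in both was not taken. The log2 fold changes of Bid were 0.40 ± 0.39 and 0.25 ± 0.19 (adjusted p = 1.00 and 0.777). In batch 2 the smallest p were those of Bcl2a1d, at -0.93 ± 0.36 (adjusted p = 0.630), and Bcl2l15, at -1.08 ± 0.46 (adjusted p = 0.650). The count of Bcl2a1d is uncertain, since 54.7% of its windows of 100 bases occur in another copy. The summed copies overlapped in batch 2, as given above. The list had a median of 0.16 in batch 1 over 13 tested genes (7 positive, 6 negative) and -0.42 in batch 2 over 11 tested genes (3 positive, 8 negative).

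Hrk, Bok and Bcl2l10 had 0 counts in all 4 libraries of batch 2. In batch 1, Hrk had counts in every library and Bok in all but wildtype replicate 1. Bcl2l10 had counts in every library of batch 1, but only 2 in wildtype replicate 1 and 3 in ERα KO replicate 1. Hrk, a BH3-only gene known best from neurons, stood at 3.46, 3.90 and 9.47 CPM in ERα KO and 2.21 and 6.50 CPM in wildtype libraries of batch 1, while the floor of 3 counts used for a count of 0 lies between 0.043 and 0.067 CPM in batch 2. The batch 1 libraries also had more of their counts in sensory receptor genes, 0.0574% to 0.255%, than the batch 2 libraries, 0.00258% to 0.0037%. The part of this in the values of Hrk, Bok and Bcl2l10 was not tested.

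Downstream of the pores, the median log2 fold change of the 11 genes of the apoptosome and caspases was -0.03 in batch 1 (5 positive, 6 negative) and -0.16 in batch 2 (3 positive, 8 negative). Cycs, which encodes cytochrome c, had -0.23 ± 0.37 in batch 1, or -0.0089 without ERα KO replicate 3. Htra2, a mitochondrial protease, had -0.38 ± 0.20 in batch 2 (edgeR adjusted p = 0.707). The 5 caspase inhibitor genes had medians of -0.16 in batch 1 and 0.12 in batch 2. Birc3 had -0.37 ± 0.37 and Birc2 -0.30 ± 0.39 in batch 1, and Xiap 0.16 ± 0.09 in batch 2. Leaving out ERα KO replicate 3 gave -0.15 for Birc3 and -0.010 for Birc2 in batch 1. The caspase inhibitors summed to 1371, 1335 and 986 CPM in ERα KO libraries of batch 1, the last in replicate 3. Wildtype libraries there summed to 1413 and 1099 CPM. Their batch 1 median was not taken without that replicate. Birc5, which encodes survivin and is made mainly in dividing cells, stood at 7.56 and 12.3 CPM in ERα KO and 39.1 and 22.9 CPM in wildtype libraries of batch 2. The libraries did not overlap, in the order of the proliferation sums given above, and the log2 fold change was -1.65 ± 0.38 (edgeR unadjusted p = 0.00755, adjusted p = 0.618), or -1.17 without wildtype replicate 3 (adjusted p = 0.112).

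The death receptor arm reaches caspases from the cell surface. Its 10 genes had medians of 0.02 in batch 1 (6 positive, 4 negative) and 0.03 in batch 2 (7 positive, 3 negative). Casp8, its initiator caspase, had -0.41 ± 0.38 and Tradd, an adaptor of the TNF receptor, 0.20 ± 0.38 in batch 1. Without ERα KO replicate 3, Casp8 had -0.14 and Tradd 0.35 there. Fas, the death receptor that limits T cell responses, had 0.21 ± 0.15 and Tnfrsf10b, the mouse TRAIL receptor, 0.28 ± 0.22 in batch 2 (edgeR adjusted p = 0.770 and 0.782).

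Upstream, Bbc3, Pmaip1 and Bax are known targets of p53. The 15 genes of the list of p53 and its targets had a median of -0.09 in batch 1 (5 positive, 10 negative) and -0.04 in batch 2 over 14 tested genes (7 positive, 7 negative). Cdkn1a, the cell cycle inhibitor p21, had 0.77 ± 0.50 and Eda2r 0.74 ± 0.66 in batch 1. Btg2, an antiproliferative gene, had -0.58 ± 0.15 in batch 2, where it stood at 222 and 195 CPM in ERα KO and 341 and 283 CPM in wildtype libraries (edgeR adjusted p = 0.618). Sesn2, a stress-induced regulator of growth signalling, had -1.24 ± 0.36, with 4.33 and 4.72 CPM in ERα KO and 13.5 and 7.73 CPM in wildtype libraries (edgeR adjusted p = 0.625). Neither gene overlapped between the genotypes of batch 2. Btg2 had -0.40 (adjusted p = 0.110) and Sesn2 -0.73 (adjusted p = 0.354) without wildtype replicate 3.

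The input from survival cytokines and FOXO factors bears on Bcl2 and Bcl2l11. Its 12 genes had a median of -0.10 in batch 1 (3 positive, 9 negative) and 0.05 in batch 2 (8 positive, 4 negative). Il7r, the receptor chain through which interleukin-7 sustains Bcl2, stood at 510 and 481 CPM in ERα KO and 397 and 379 CPM in wildtype libraries of batch 2, and the log2 fold change was 0.36 ± 0.10 (edgeR adjusted p = 0.625). Foxo1, a transcription factor that sustains Il7r in T cells, stood at 594 and 578 CPM in ERα KO and 483 and 501 CPM in wildtype libraries, with 0.26 ± 0.09 (edgeR adjusted p = 0.625). Both genes, like Bcl2, were higher in both ERα KO libraries of batch 2 than in either wildtype library, as were 19.6% of all genes tested there. In the same list, Stat5b was higher in this way, Pim1 was lower, and the other genes overlapped. In batch 1, Foxo1 stood at 487, 467 and 431 CPM in ERα KO and 561 and 632 CPM in wildtype libraries, with a log2 fold change of -0.50 ± 0.36, and Il7r overlapped, at 611, 318 and 668 CPM against 609 and 442 CPM. Il2rb, a chain of the receptors for interleukin-2 and interleukin-15, had 0.48 ± 0.39 in batch 1.

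Protein turnover sets much of the level of MCL1 and BIM. The 8 genes of that list had a median of -0.26 in batch 1 (1 positive, 7 negative) and 0.01 in batch 2 over 7 tested genes (4 positive, 3 negative). Fbxw7, which marks MCL1 for destruction, had -0.42 ± 0.37 and Dynll2, a dynein light chain that binds BMF, -0.33 ± 0.36 in batch 1. Without ERα KO replicate 3 the batch 1 values were -0.18 for Fbxw7 and -0.12 for Dynll2. The list summed to 1744, 1697 and 1258 CPM in ERα KO libraries of batch 1, the last in replicate 3. Wildtype libraries there summed to 1782 and 1586 CPM. The batch 1 median without ERα KO replicate 3 was not taken. Huwe1, another ubiquitin ligase of MCL1, had 0.17 ± 0.09 and Btrc, part of a ligase that acts on BIM, -0.57 ± 0.43 in batch 2 (edgeR adjusted p = 0.705 and 0.780), and without wildtype replicate 3 Btrc had 0.17.

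**Figure D4:**
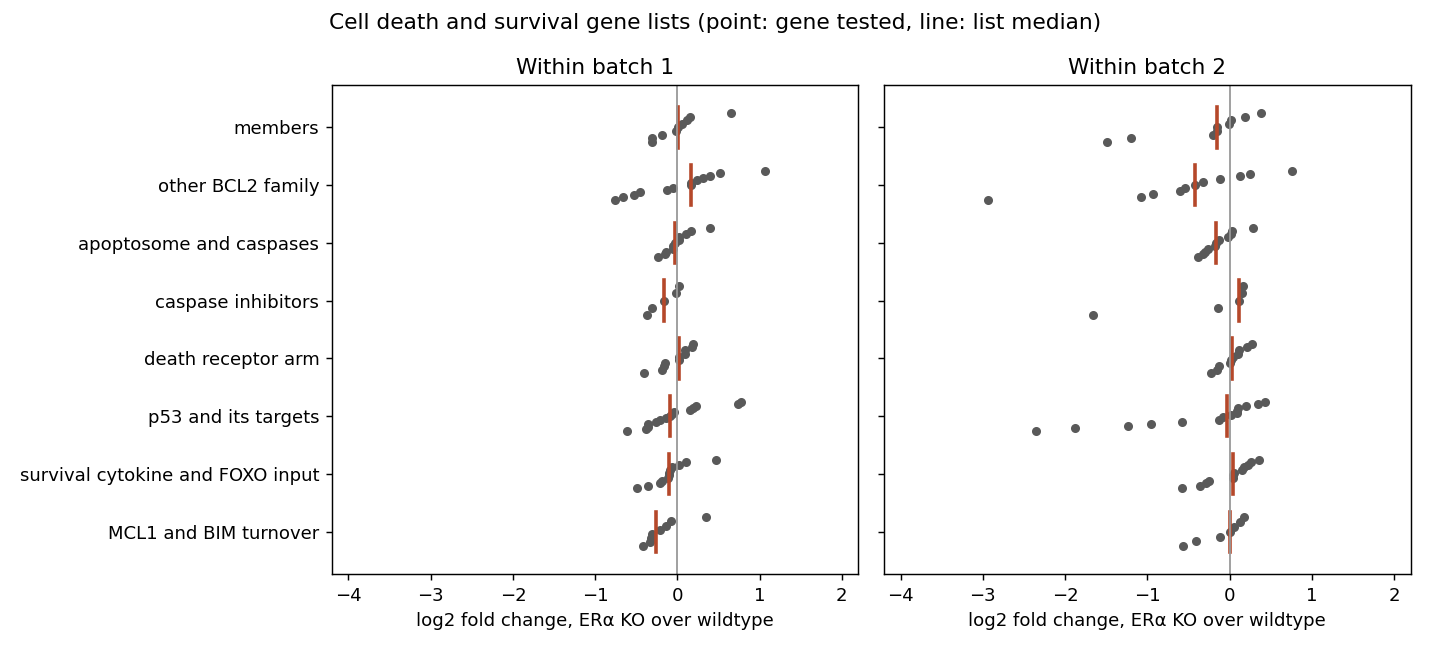
Log2 fold change, ERα KO over wildtype, of each tested gene of the 9 members and the 7 pathway lists, in batch 1 and batch 2; points are genes and red vertical marks are list medians. The medians lie between -0.26 and 0.16 in batch 1 and between -0.42 and 0.12 in batch 2, and single genes spread widely around them.

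The windows around the transcription start sites of the members were searched because Bcl2l11 and Bbc3 are known FOXO targets, Bax is a known p53 target, and the genotype concerns an estrogen receptor. The RefSeq windows of GRCm38.p6 hold 300 bases per start site, 32851 in all, and 13 belong to 8 of the 9 genes. The estrogen response element GGTCANNNTGACC, searched on both strands, was in 0 of the 13 windows and in 0.07% of all windows, so no match says only that these letters are not in this window. The FOXO motif TGTTTAC, on both strands, was in 2 of the 13 windows and 3.65% of all windows, and the p53 motif, a single decamer searched by its name, was in 1 of the 13 and 8.36% of all windows. The matches are shown in capitals.
Bcl2l11: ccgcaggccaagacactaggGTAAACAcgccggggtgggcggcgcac
Bbc3: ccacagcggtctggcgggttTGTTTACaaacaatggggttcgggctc
Bax: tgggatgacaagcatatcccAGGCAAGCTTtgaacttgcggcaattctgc
The first holds the FOXO motif on the opposite strand, at chr2:128125791-128125837 (plus strand), the second on the same strand, at chr7:16310074-16310120 (plus strand), and the third the p53 motif, at chr7:45467070-45467119 (minus strand). None of the 3 genes differed between genotypes past the threshold, as given above, and a match is a description of letters, not a site of binding.

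For each gene, the transcripts most like it over the 9 libraries were found among 15919 genes, by the mean absolute difference of log2(CPM + 0.5) after centring each batch on its mean. Bax was closest to Tmem64 (0.020) and Faf2 (0.026), Mcl1 to Aim2 (0.026) and Ly9 (0.041), and Bak1 to Cog7 (0.035) and Nans (0.046). Bcl2 was closest to Zfp939 (0.060) and Smpd5 (0.067), and Bcl2l11 to Spr (0.063) and Pfkfb4 (0.073). Bcl2l1 had no closer neighbour than Gpx1 (0.129) and Ubac1 (0.131), and Bcl2a1b none closer than Taf13 (0.132) and Gsto1 (0.138). Bbc3 was closest to Clu (0.096) and Garnl3 (0.147), and Pmaip1 to Fgd2 (0.152) and Zeb2 (0.155). The smallest distance was that of Bax and the largest that of Pmaip1, and these distances carry no test. A gene's own mean absolute deviation from its batch mean was 0.089 for Bax, 0.39 for Pmaip1 and 0.44 for Bbc3. A small distance can therefore come from a gene that varies little.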

How the data were processed

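RNA from 9 samples was sequenced as single-end reads of 100 bases after a column extraction and an Ovation library kit, per the labels' protocols. The submitters' processing notes name Salmon 1.2.0, R 4.0.3 and build GRCm39, without the strand setting or annotation release. The authors deposited 1 table of estimated counts for 39253 genes, summed per gene without scaling to depth as far as the file headers and values show, whose totals differ between libraries. These were rounded to whole numbers, and CPM is a count divided by the library total. Without the strand, reads of a gene and of its antisense partner are not separable. The floor used for a gene at 0, 3 counts, lies between 0.043 and 0.609 CPM. Intervals and floors cover counting error only.

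Genotypes were compared with edgeR 4.0.16 in R 4.3.3 (robust quasi-likelihood test, TMM scaling, low-count filter with minimum count 10 and minimum total 15, Benjamini-Hochberg adjustment over all genes tested, threshold 0.05) within each batch, over both batches with a batch term, and for the interaction of batch and genotype. The fits were also run on simulated counts with known changes and 1 fixed spread for all genes and libraries. That run does not show how the fits behave with the uneven spread of these libraries. Fold changes are relative to TMM scaling, so their sign can differ from that of raw CPM means. Alternatives were DESeq2 1.42.0 (its size factors in edgeR, and its own Wald test), scaling by upper quartile, no filter, a replicate block, no batch term, leaving out each library, and, chosen after seeing the data, leaving out both libraries that stood apart. Libraries of a group and batch differed by more than sampling noise (chi-square per degree of freedom 4.27 to 141).

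The members and gene lists were chosen with earlier results of these data known. All members are named, and from each other list the genes past the threshold or, where none passed, those with the 2 smallest p in batch 1 and in batch 2. Some genes that this rule picks are not reported here. Bcl2l2, Slc4a1, Hrk, Bok and Bcl2l10 were named after their values were seen. Reference sequences come from GENCODE M21 and RefSeq, on GRCm38, while the count table uses another build, and no coordinates were taken from the table.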

Additional observations from a re-analysis of the deposited data

Results flagged for a closer look

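Levels were examined in 66 groups, each of 1 gene or marker sum in the ERα KO or in the wildtype libraries of both batches, for a highest or lowest library far from its neighbour. About 1 in 20 such groups is marked by chance, and several genes differ in level between the batches. Bcl2l1 at 82.3 CPM and Bcl2l2 at 47.1 CPM in wildtype replicate 3 lay far above the other 3 wildtype libraries, and the summed erythroid markers of that library, 4977 CPM, did so as well. Bbc3 at 47.5 CPM in ERα KO replicate 3 lay far above the other ERα KO libraries. Bcl2a1c stood out at 0.986 CPM in ERα KO replicate 3 and at 0.609 CPM in wildtype replicate 2. Bcl2l10 at 3.04 CPM and Bok at 2.23 CPM in wildtype replicate 2 lay above the other wildtype libraries. Bid in wildtype replicate 1, at 12.3 CPM, lay above 3 close wildtype values. Dendritic cell markers summed to 342 CPM in ERα KO replicate 4, above the other ERα KO libraries. Ccr7 alone stood at 335 CPM there, so this is mostly the value of 1 gene of the list.

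Of 78 members and pathway genes tested in both batches, 5 (6.41%) had ERα KO and wildtype libraries that did not overlap in either batch and lay in opposite directions, against 4.96% of all 15288 genes tested in both, so the share was near that of genes in general. The difference between batches, batch 2 minus batch 1 on the log2 scale, was -1.84 for Cdkn1a (edgeR adjusted p = 0.563), -0.46 for Casp9 (adjusted p = 0.737), 0.44 for Birc3 (adjusted p = 0.680), 0.44 for Casp8 (adjusted p = 0.782) and 0.66 for Foxo1 (adjusted p = 0.518). None of the 5 differences passed the threshold, and the batches also differed in the sex-linked genes Xist and Ddx3y, as given above. Foxo1, for example, stood at 594 and 578 CPM in ERα KO against 483 and 501 CPM in wildtype libraries of batch 2, and at 487, 467 and 431 CPM against 561 and 632 CPM in batch 1.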

How the results depend on the processing

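No member passed the threshold in edgeR with all libraries of a comparison under any scaling, filter, block or batch term tried, and leaving out libraries ended this for Bcl2, Bcl2l1 and Pmaip1 in batch 2 and Bcl2l1 in the interaction, as given beside those values. The number of genes called over the whole table moved more. In batch 1 it was 31 (18 higher), 56 (31 higher) with DESeq2 size factors, 6 (1 higher) with upper-quartile scaling, 68 without the filter, and 33 to 118 with 1 library left out. In batch 2 it was 0 (1237 genes had an unadjusted p under 0.05), 34 without the filter, 329 in DESeq2, and 0 to 879 with 1 library left out, 268 without wildtype replicate 3 and 879 without wildtype replicate 4. Over both batches it was 1, 2 without the filter, 16 in DESeq2, which gave no adjusted p for 8617 genes, 0 without the batch term, 1 without both libraries that stood apart, and 0 to 3 with 1 library left out. For the interaction it was 1, 2 without the filter, 165 in DESeq2, and 1 to 238 with 1 library left out, 238 without wildtype replicate 4, 13 without wildtype replicate 3 and 6 without ERα KO replicate 3.

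Deviations of same-numbered samples from the mean of their group and batch correlated at 0.41, -0.43, -0.08 and -0.11. In a group of 2 libraries these deviations mirror each other. Number 3 sets an ERα KO library of batch 1 against a wildtype library of batch 2. The correlations therefore cannot show whether equal replicate numbers pair the samples. With a replicate block the calls were 58 in batch 1 and 1 over both batches, and the log2 fold changes that turned sign were 0.090 for Mcl1 and 0.053 for Bcl2a1b in batch 1, and 0.039 for Bcl2l1 and -0.082 for Bak1 over both batches. Batch 2 shares 1 number, so no block was fitted there, and the interaction was not run with one.

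Signs of values near 0 were not stable. In batch 1 they turned for Bcl2l1 (-0.014), Bax (-0.13) and Bak1 (-0.084) with DESeq2 size factors, for Bcl2l1 (-0.014), Bax (-0.13) and Bak1 (-0.085) in the DESeq2 Wald test, for Bax (-0.052) without the filter and for Bcl2 (0.027) with upper-quartile scaling, which in batch 2 turned Bcl2l11 (0.045). Over both batches they turned for Mcl1 (-0.048), Bax (-0.032) and Bak1 (-0.089) without the filter, for Mcl1 (-0.012), Bax (-0.0032) and Bak1 (-0.091) without the batch term, and for Bak1 (-0.10) without both libraries that stood apart. In the interaction they turned without the filter for Bcl2a1b (0.14) and Bax (0.021). With 1 library left out, batch 1 values ran from -0.26 to 0.21 for Bcl2, -0.15 to 0.41 for Bcl2l1, -0.35 to 0.063 for Mcl1, -0.95 to 0.88 for Bcl2a1b, -0.31 to 0.37 for Bax, -0.23 to 0.37 for Bak1 and -0.19 to 0.55 for Pmaip1. Batch 2 values ran from -0.49 to 0.15 for Bcl2a1b, -0.028 to 0.047 for Bax, -0.30 to 0.0036 for Bak1, -0.37 to 0.48 for Bcl2l11 and -0.59 to 0.47 for Bbc3. Values over both batches ran from -0.089 to 0.12 for Mcl1, -0.55 to 0.14 for Bcl2a1b, -0.15 to 0.11 for Bax, -0.21 to 0.11 for Bak1 and -0.034 to 0.56 for Bbc3. Interactions ran from -1.16 to 0.72 for Bcl2a1b, -0.43 to 0.30 for Bax, -0.60 to 0.057 for Bak1 and -0.18 to 0.74 for Bcl2l11. The cause of these shifts was not tested. Of 36 group means taken on TMM-scaled library sizes, 25 moved by less than 1 SD and 11 by more. Batch 1 totals, the smaller ones, limit Bcl2a1b most, at 21 counts in its lowest library.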

Other observations

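The counts of prosurvival and BH3-only genes were also set against each other within each library, where library totals cancel. The Bcl2 count per Bcl2l11 count was 5.08 and 5.42 in ERα KO and 3.37 and 5.20 in wildtype libraries of batch 2, and 5.10, 5.66 and 5.92 in ERα KO and 3.15 and 6.61 in wildtype libraries of batch 1. The wildtype pairs spanned more than the ERα KO libraries in both batches. The Mcl1 count per Bcl2 count was 2.19 and 1.85 in ERα KO and 2.28 and 2.31 in wildtype libraries of batch 2, and 1.42, 1.35 and 0.646 in ERα KO and 1.67 and 1.00 in wildtype libraries of batch 1. The Bcl2l1 count per Bcl2 count was 0.0613 and 0.0626 in ERα KO and 0.317 and 0.119 in wildtype libraries of batch 2. Both ERα KO libraries lay below both wildtype libraries there, and the higher wildtype value was that of replicate 3. In batch 1 it overlapped, at 0.0642, 0.0707 and 0.0372 in ERα KO and 0.0741 and 0.0362 in wildtype libraries. These ratios are descriptions and were not tested.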
